A study of Homo sapiens with 6 samples.

Results

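A set of 10 interferon-induced antiviral genes, of the 18665 genes named on the array, was described in HEK293T cells, a line from human embryonic kidney that expresses the large T antigen of SV40. They were IFIT1, IFIT2, IFIT3, IFIT5, CXCL10, IFI27, ISG15, OASL, IRF1 and IFIH1, and all probes annotated to these symbols were used, 14 of the 48803 probes. The genes were chosen on measured values of the same 6 arrays, transfected against control, so their own differences between transfected and control cells are given as a description, with no test. The series held 3 arrays of cells that had received 4 µg of a miR-128 clone by transfection and 3 arrays of control cells, described by the submitters as biological triplicates, all on 1 slide. Transfected cells lay on sections D to F of the slide and controls on sections A to C, so that section and group cannot be told apart. The labels say neither what the control cells received nor which miR-128 hairpin was cloned.

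Interferons are secreted proteins that cells release when sensors of foreign nucleic acid, such as the RNA sensors RIG-I and MDA5, are engaged. They act through cell surface receptors and Janus kinases on transcription factors that bind the interferon-stimulated response element of their target promoters. Some of these targets, CXCL10 and the IFIT genes among them, can also be switched on directly by IRF3, and CXCL10 and IRF1 are known targets of the transcription factor NF-kB as well. A microRNA pairs through its seed with messenger RNAs and reduces how long they last and how much protein they give, and miR-128 is best known from brain.

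The mature microRNA that both human miR-128 hairpins give, on chromosomes 2 and 3, is shown because it defines the treatment, with the seed, bases 2 to 8, in capitals (RefSeq, GRCh38.p14).
hsa-miR-128-3p: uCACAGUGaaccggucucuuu

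Promoter stretches of the members are shown so that the element through which interferon acts can be read beside each gene. RefSeq promoters of 300 bases, from 250 before to 50 after the annotated start, were matched by symbol for 8 of the 10 genes; IFIT2 and OASL had no entry. Each was searched on both strands for GAAA, any 2 bases and GAAA, the core of the interferon-stimulated response element, and for GGGA, any 4 bases and CC, letters typical of NF-kB sites; a match on the other strand reads as the reverse complement. Member counts are of genes with a match in any of their promoters, and IFIT3 and IFI27 have 2 starts each. Shares are of single promoters. The first motif was present in 7 of the 8 genes and in 3.57% of all 35116 promoters of that length. The second was present in 3 of the 8, CXCL10, IRF1 and IFIH1, and in 25.6% of all promoters. Letters of both kinds were in 2 of the 8, CXCL10 and IFIH1, and in 0.664% of all promoters. A match is a string of letters, not a site shown to be bound. In the stretches below (GRCh38.p14, 5′ to 3′ on the strand of the gene), capitals mark every match of either motif.
CXCL10 at chr4:76023600-76023728, minus strand: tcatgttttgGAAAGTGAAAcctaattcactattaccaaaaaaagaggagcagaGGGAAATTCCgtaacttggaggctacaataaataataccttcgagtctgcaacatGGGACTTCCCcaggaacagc
IFIH1 at chr2:162318686-162318853, minus strand: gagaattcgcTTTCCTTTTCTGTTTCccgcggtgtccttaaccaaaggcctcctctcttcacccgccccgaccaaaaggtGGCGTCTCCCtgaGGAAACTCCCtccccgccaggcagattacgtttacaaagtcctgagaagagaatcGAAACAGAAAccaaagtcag
IRF1 at chr5:132490804-132490833, minus strand: ggccagggctGGGGAATCCCgctaagtgtt
IFIT1 at chr10:89392497-89392539, plus strand: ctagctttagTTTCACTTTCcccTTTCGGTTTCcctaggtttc
IFIT5 at chr10:89414513-89414573, plus strand: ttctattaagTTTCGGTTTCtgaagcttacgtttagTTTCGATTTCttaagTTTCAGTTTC
IFI27 at chr14:94110618-94110660, plus strand: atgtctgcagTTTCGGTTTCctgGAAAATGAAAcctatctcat
ISG15 at chr1:1013374-1013409, plus strand: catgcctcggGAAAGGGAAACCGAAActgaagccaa
In CXCL10 the first match is the response element, 221 bases before the start, and the other matches, 177 and 122 bases before it, are of the NF-kB kind. IFIH1 holds 3 response element matches, of which the 2 farthest from the start overlap, and 2 of the NF-kB kind, 89 and 76 bases before the start. IRF1 holds 1 match, of the NF-kB kind, and IFIT1, IFIT5, IFI27 and ISG15 hold only response element matches, 2, 3, 2 and 2 of them. Those of ISG15 overlap each other. IFIT3 is annotated with 2 starts, and each promoter held 2 response element matches and none of the NF-kB kind.

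Levels are given below as normalized log2 intensity, that is, bead signal after background correction and quantile normalization, and a probe counts as detected on an array at a detection p under 0.01. Arrays differed in brightness before normalization: mean signal was 408 to 591 on the transfected arrays and 513 to 660 on the controls, and transfected array 1 was the dimmest. Replicate numbers follow deposit order and pair no arrays. Over all 9797 genes tested with limma, 0% had a Benjamini-Hochberg adjusted p under 0.05, so no member passed, while 28.5% had an unadjusted p under 0.05. Of the cell line's markers, KRT8, KRT18, VIM, NEFL, CDH2 and LIN28B were detected on all 6 arrays, and PAX2, LHX1 and NEFM on none. Among them KRT8 and NEFL were lower without overlap in transfected cells, with log2 differences of -1.02 ± 0.16 and -0.69 ± 0.19 (limma adjusted p = 0.0502 and 0.0771), and LIN28B was higher without overlap, at 0.47 ± 0.17 (0.131). INA, detected on 2 of 3 transfected arrays and all controls, was also higher without overlap, at 0.37 ± 0.23 (0.298). Its transfected array 1 and control 2 both rounded to 6.10. Of 5 fibroblast markers, COL1A1, COL3A1 and LUM were detected on all 6 arrays, and the list summed to 605 to 1068 on the transfected arrays and 842 to 1123 on the controls. Of 9 leukocyte markers named on the array, CD68 alone was detected on all arrays and 6 were detected on none, among them PTPRC, the pan-leukocyte marker; ITGAM was detected on 2 of 3 transfected arrays and on no control, and CD14 on no transfected array and 1 of 3 controls. Their summed normalized intensity was 1203 to 1698 on the transfected arrays and 1552 to 2179 on the controls. Most of that sum was CD68, at log2 10.51, 9.84 and 9.94 on the transfected arrays, against 10.90, 10.51 and 10.34 on the controls. The part of these markers in the values below was not tested. Fewer cells expressing a gene and less of its RNA per cell cannot be told apart in such bulk samples.

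The 10 genes did not move as a block. Of the 8 tested, 4 were higher and 4 lower in transfected cells, with a median log2 fold change of 0.27, against -0.03 over all 9797 genes. IFIT2, CXCL10 and IFIH1 were higher on all 3 transfected arrays than on any control, a pattern that 14.7% of all tested genes shared. IFIT1 and IFI27 were lower on all 3 transfected arrays than on any control, as were 18.1% of all tested genes. These 5 of 8 stand beside 32.8% of all genes that were apart in either direction, and nothing is read from this because the genes were chosen on this contrast. IFIT5, ISG15 and IRF1 overlapped between the groups. IFIT3 and OASL were detected on no array and were not tested.

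**Figure D1:**
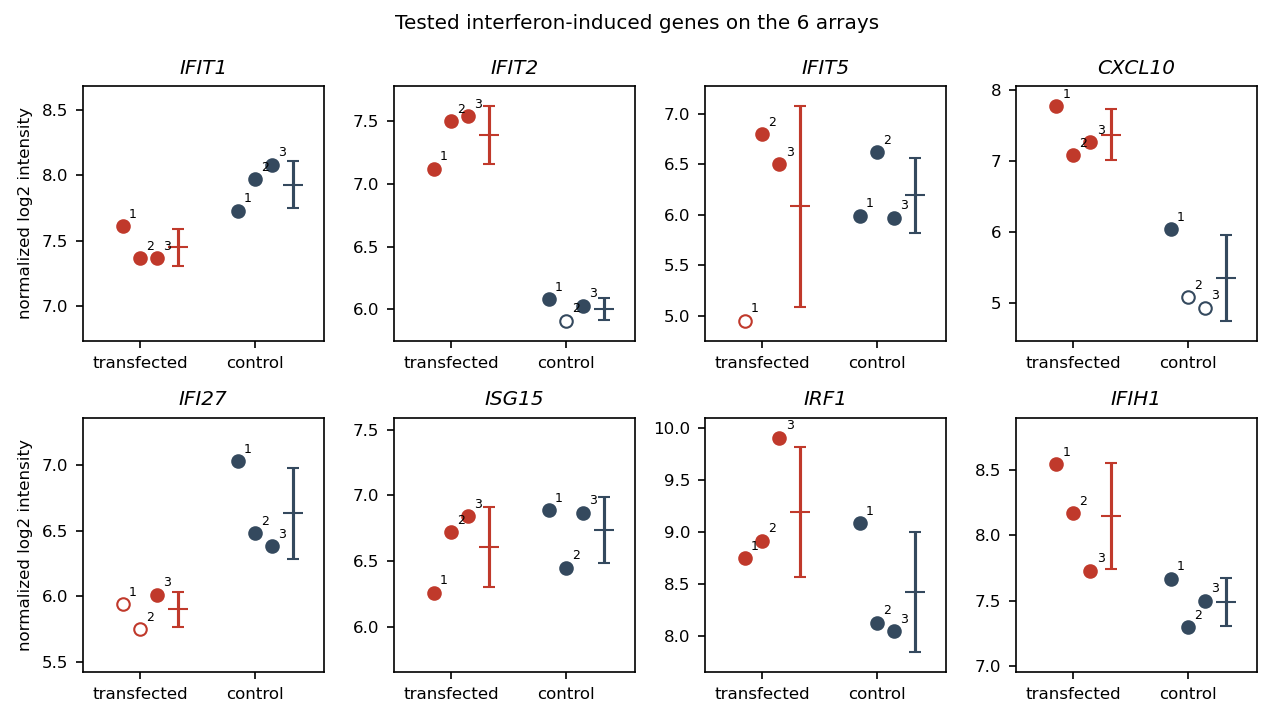
Normalized log2 intensity of the 8 tested members on each array, with transfected cells left of controls. Numbered points are arrays, filled where detected and open where not, and the bar beside them is the mean ± SD of 3 arrays; IFIT2, CXCL10 and IFIH1 lie higher in transfected cells without overlap and IFIT1 and IFI27 lower.

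Among the IFIT genes, which encode antiviral proteins that bind viral or unmodified RNA, IFIT2 and IFIT1 went opposite ways. IFIT2, whose product is also linked to cell death, had log2 intensities of 7.12, 7.50 and 7.54 on transfected arrays 1 to 3, against 6.08, 5.91 and 6.03 on controls 1 to 3. Every transfected array lay more than 1 log2 unit above the highest control. The log2 difference was 1.38 ± 0.18 (SE, n = 3 per group). The probe was detected on all 3 transfected arrays and on 2 of 3 controls, so the fold, 2.60-fold higher, is given as a bound. The undetected control lay at the lowest detected level of its array, so here the bound equals the estimate. IFIT1, which blocks translation of RNA lacking the host's cap methylation, had 7.61, 7.37 and 7.37 on transfected arrays 1 to 3, against 7.73, 7.97 and 8.08 on controls 1 to 3. The groups did not overlap, but transfected array 1 and control 1 were only a small step apart. The log2 difference of IFIT1 was -0.48 ± 0.18 (SE), 1.39-fold lower, and the probe was detected on all 6 arrays.

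For a bound such as that of IFIT2, an array of the dimmer group counts for no less than the lowest signal of any probe detected on it. A bound holds for these group means and this processing only, and takes no account of the spread between arrays. Without background correction the differences of IFIT2, CXCL10 and IFI27 were smaller. The other IFIT1 probe was detected on no array and had values of 5.97, 5.38 and 5.20 in transfected cells, against 5.07, 5.32 and 5.34 in controls. Its groups overlapped and its difference had the opposite sign, 0.28, so the lower level of IFIT1 rests on 1 probe.

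IFIT5, which binds RNA with a terminal triphosphate, was uneven within the transfected group. It had log2 intensities of 4.95, 6.80 and 6.50 on transfected arrays 1 to 3, against 5.99, 6.62 and 5.97 on controls 1 to 3. Transfected array 1, on which it was not detected, lay below every control, and transfected array 2 lay above them all. The log2 difference of IFIT5 was -0.11 ± 0.45 (SE), and without transfected array 1 it was 0.48.

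IFIT3, which stabilizes the binding of RNA by IFIT1, had 3 probes and none was detected on any array, with detection p between 0.0158 and 0.967. Their mean log2 intensities were 4.70, 5.39 and 4.71 in transfected cells, against 4.56, 5.18 and 4.75 in controls. All 3 probes overlapped between the groups. In RefSeq, IFIT2, IFIT3, IFIT1B, IFIT1 and IFIT5 follow each other as neighbouring protein-coding genes on chromosome 10, so that the higher IFIT2 and the lower IFIT1 flank IFIT3 and IFIT1B. IFIT1B was detected on no array.

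CXCL10, the chemokine that draws activated T cells through the receptor CXCR3, had the largest difference among the members. It had log2 intensities of 7.77, 7.08 and 7.26 on transfected arrays 1 to 3, against 6.04, 5.08 and 4.93 on controls 1 to 3. The lowest transfected array lay about 1 log2 unit above control 1, which in turn stood well above the other controls. The log2 difference was 2.02 ± 0.32 (SE, n = 3 per group). The probe was detected on all 3 transfected arrays and on control 1 alone among the controls, which gives at least 2.70-fold higher. CXCL9 and CXCL11, related ligands of the same receptor that lie near CXCL10 on chromosome 4, were detected on no array. CXCL9 averaged 4.48 in transfected cells and 4.51 in controls, and CXCL11, by 1 of its 2 probes, averaged 4.77 in transfected cells and 4.79 in controls.

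IRF1, a transcription factor of interferon and NF-kB signalling, was spread widely within both groups (SD 0.62 in transfected cells and 0.58 in controls). It had log2 intensities of 8.75, 8.92 and 9.91 on transfected arrays 1 to 3, against 9.09, 8.13 and 8.05 on controls 1 to 3. Transfected array 3 stood above the rest, and control 1 exceeded transfected arrays 1 and 2. The log2 difference of IRF1 was 0.77 ± 0.37 (SE), with detection on all 6 arrays. Without control 1 it was 1.11 and the groups no longer overlapped, and without transfected array 3 it was 0.41.

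IFIH1, which encodes the sensor of long double-stranded RNA MDA5, had log2 intensities of 8.54, 8.17 and 7.73 on transfected arrays 1 to 3, against 7.67, 7.30 and 7.50 on controls 1 to 3. The groups were apart by no more than the step between transfected array 3 and control 1. The log2 difference was 0.66 ± 0.24 (SE), 1.58-fold higher, with detection on all 6 arrays.

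IFI27, a small membrane protein of mitochondria and the nuclear envelope, had log2 intensities of 5.94, 5.75 and 6.01 on transfected arrays 1 to 3, against 7.03, 6.48 and 6.38 on controls 1 to 3. Control 1 stood highest, and the transfected arrays lay close together near the limit of detection. The log2 difference was -0.73 ± 0.21 (SE). The probe was detected on 1 of 3 transfected arrays and on all controls, which gives at least 1.49-fold lower.

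ISG15, the ubiquitin-like modifier that is joined to proteins in interferon-treated cells, did not separate the groups. It had log2 intensities of 6.26, 6.72 and 6.84 on transfected arrays 1 to 3, against 6.89, 6.45 and 6.87 on controls 1 to 3. The log2 difference was -0.13 ± 0.22 (SE), with detection on all 6 arrays. On transfected array 1 the probe lay near the lowest detected level of 6.21, and without that array the difference was 0.05. OASL, a relative of the oligoadenylate synthetases that enhances RIG-I signalling, had 2 probes, detected on no array. Their mean log2 intensities were 4.83 and 4.91 in transfected cells, against 4.96 and 4.63 in controls. The first overlapped between the groups and the second was higher on every transfected array, but below detection throughout.

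Before normalization the separation was smaller. On the deposited signal scale the 3 transfected arrays of CXCL10 gave 241, 249 and 295, against 202, 129 and 149 on controls 1 to 3, with standard errors over beads of 5.13 to 12.7, and the groups did not overlap. IFIT1 gave 227, 276 and 310 on the transfected arrays, against 391, 330 and 428 on the controls, again apart. The other 3 genes that were apart after normalization overlapped on this scale. IFIT2 gave 195, 290 and 333 on the transfected arrays, against 205, 154 and 193 on the controls, so that transfected array 1, the dimmest, fell below control 1. IFIH1 gave 334, 394 and 363 on the transfected arrays, against 381, 245 and 327 on the controls. IFI27 gave 156, 177 and 189 on the transfected arrays, against 289, 182 and 214 on the controls. Over all 9797 tested genes, 0.521% were apart and higher and 17.7% apart and lower on the deposited signal. In the authors' processed intensities, which bring the arrays to a common mean, the same 5 members were apart as after quantile normalization. There CXCL10 had 174, 122 and 148 in transfected cells, against 50.7, 14.1 and 9.0 in controls, and IFIT2 had 105, 169 and 183, against 53.2, 41.1 and 47.3.

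**Figure D2:**
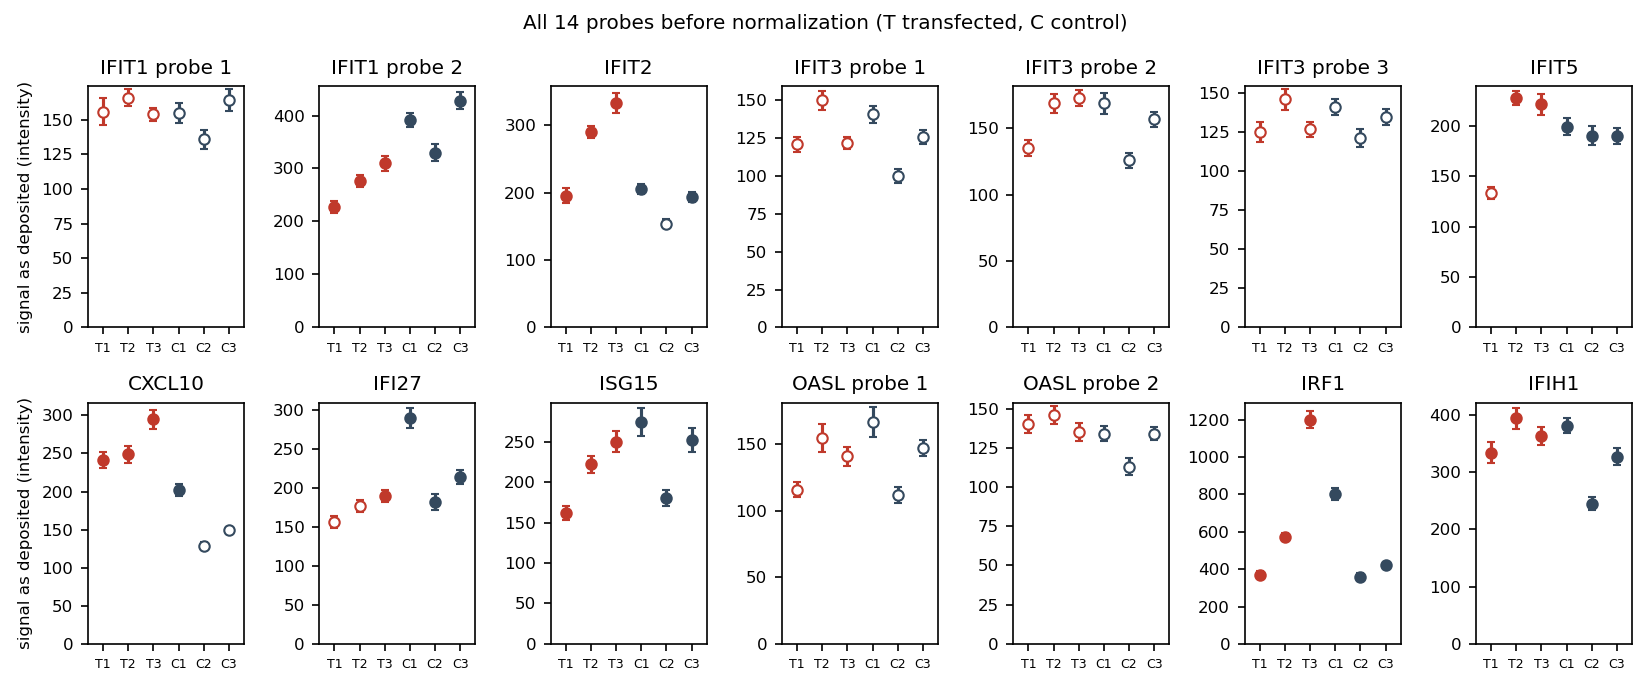
Deposited signal intensity of all 14 probes on transfected arrays (T1 to T3) and controls (C1 to C3), with the standard error over beads as bars and open points where not detected. CXCL10 and the detected IFIT1 probe separate the groups on this scale, and the IFIT3 and OASL probes are open on every array.

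The interferons themselves were almost all undetected. Of 21 interferon genes named on the array, 19 were detected on no array, including IFNB1 and IFNG, and IFNA13 on 1 of 3 transfected arrays and no control. IFNA8 alone was tested, with a log2 difference of 0.33 ± 0.19 (SE, limma adjusted p = 0.275). Interferon alpha genes are near copies of each other, so their probes may share transcripts.

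Receptors and Janus kinases were detected, except JAK1. Among 8 tested genes, 6 were higher and 2 lower (median 0.13; 3 higher and 5 lower with arrays scaled to equal medians), and 0 passed the adjusted threshold. IFNGR1, the ligand-binding chain of the interferon gamma receptor, had 10.50, 10.43 and 10.31 on the transfected arrays, against 10.18, 9.67 and 9.67 on the controls (log2 difference 0.57 ± 0.20, limma adjusted p = 0.114). JAK2 had a difference of 0.59 ± 0.29, the kinase TYK2 of -0.28 ± 0.19 and the receptor chain IL10RB of -0.27 ± 0.24.

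Of the sensors and adaptors, 10 of 18 were tested, 5 higher and 5 lower (median -0.03), or 2 higher and 8 lower with equal medians, and 0 passed. STING1, the adaptor of DNA sensing, had 7.77, 8.15 and 8.27 on the transfected arrays, against 8.60, 8.69 and 8.63 on the controls (log2 difference -0.58 ± 0.19, limma adjusted p = 0.102). TRAF6, a ubiquitin ligase of Toll-like receptor signalling, had a difference of 0.36 ± 0.17. MAVS, the mitochondrial adaptor to which RIG-I and MDA5 signal, was detected on 2 of 3 transfected arrays and all controls. Its groups overlapped, with 5.52, 6.62 and 7.02 on the transfected arrays, against 6.81, 7.14 and 7.22 on the controls. By group means alone it was at least 1.36-fold lower (log2 difference -0.67 ± 0.36, limma adjusted p = 0.246). TLR3, the endosomal sensor of double-stranded RNA, was detected on all transfected arrays and 1 of 3 controls. It had 6.33, 6.03 and 5.95 on the transfected arrays, against 5.77, 5.28 and 6.04 on the controls, so its groups overlapped too. By group means alone TLR3 was at least 1.13-fold higher (log2 difference 0.40 ± 0.23, limma adjusted p = 0.276). RIGI was detected on 1 of 3 transfected arrays and no control, and CGAS, IFI16 and MYD88 on no array.

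Of the kinases and transcription factors, 6 were tested, 4 higher and 2 lower (median 0.44), and 0 passed. With equal medians 4 were still higher, with a median of 0.15, and with no filter on dim probes 6 of 11 (median 0.08). As reported 3 were apart and higher, beside 14.7% of all genes, and with equal medians 0, beside 1.74%. NFKB1, an NF-kB subunit and itself an NF-kB target, had 11.09, 12.16 and 12.01 on the transfected arrays, against 10.29, 10.54 and 10.46 on the controls (log2 difference 1.32 ± 0.28, limma adjusted p = 0.0539). IRF3, which the sensors activate, had 8.31, 8.07 and 8.11 on the transfected arrays, against 9.20, 8.75 and 8.54 on the controls (-0.67 ± 0.21, adjusted p = 0.0972). The kinases IKBKE and TBK1, which phosphorylate IRF3, had differences of 0.48 ± 0.20 and 0.43 ± 0.19. IRF2, IRF5, IRF7, RELA and BATF2 were detected on no array. Negative regulators had 5 of 6 tested genes higher (median 0.28), or 3 of 6 with equal medians, and 0 passed. The phosphatases PTPN11 and PTPN2 had differences of 0.86 ± 0.26 and 0.58 ± 0.25, the deubiquitinase CYLD of 0.41 ± 0.24 and IRF2BP1 of -0.37 ± 0.25. USP18 and SOCS3, feedback inhibitors that interferon induces, were detected on no array, and SOCS1, another, on no transfected array and 2 of 3 controls.

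Other interferon-stimulated genes went both ways. Among 29 tested genes, 13 were higher and 16 lower (median -0.11), and 0 passed the adjusted threshold. The groups did not overlap in 7 genes that were higher and 8 that were lower, set against the 14.7% and 18.1% of all genes given above. With arrays scaled to equal medians, which moved the median of all genes to -0.33, 7 were higher and 22 lower (median -0.43), of which 0 were apart and higher and 9 apart and lower. LY6E, a membrane protein that limits coronavirus entry, had 6.86, 7.03 and 7.02 on the transfected arrays, against 8.27, 8.14 and 8.0 on the controls (log2 difference -1.16 ± 0.17, limma adjusted p = 0.0502). IFI35 had a difference of -0.79 ± 0.19 (adjusted p = 0.0642), whereas NMI, its binding partner, had 0.69 ± 0.19 (0.0794). PARP14, a mono-ADP-ribosyltransferase, had 0.71 ± 0.16 (0.0593). MX2, OAS1, OAS2, RSAD2 and CMPK2 were among the interferon-induced genes detected on no array.

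**Figure D3:**
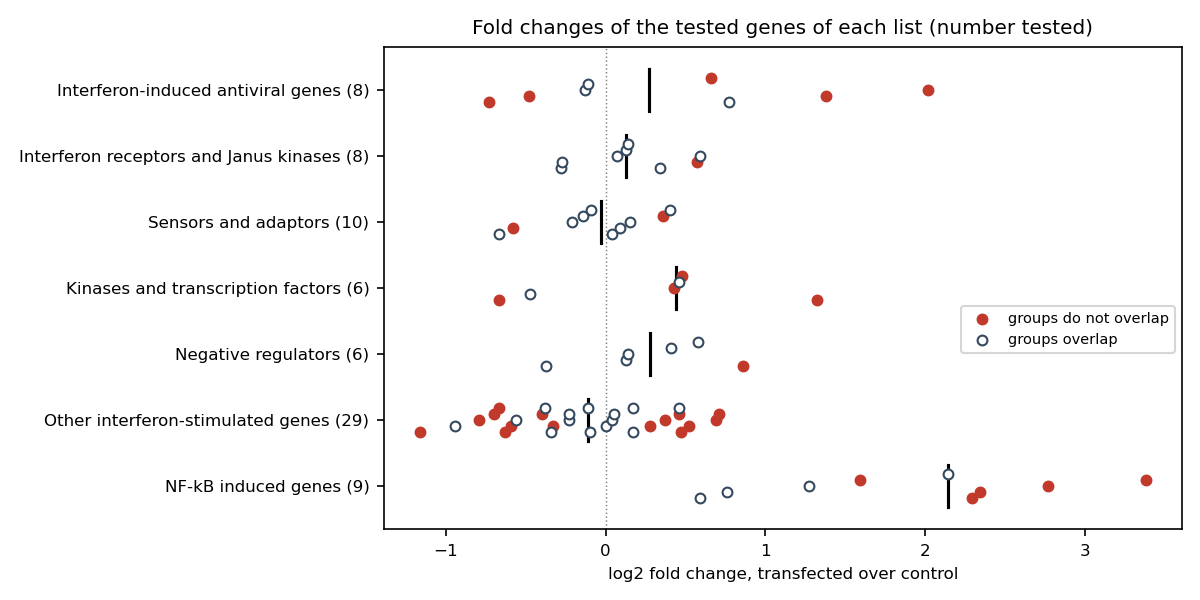
Log2 fold change, transfected over control, of each tested gene in 7 lists, with the number tested in parentheses. Filled points are genes whose groups do not overlap and the vertical bar is the list median; the interferon lists have medians between -0.11 and 0.44 and the NF-kB induced genes 2.14, or 1.27 for the 5 of them detected on all 6 arrays.

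Of 9 tested NF-kB induced genes, 9 were higher in transfected cells, with a median log2 fold change of 2.14 against -0.03 over all genes, and 0 passed the adjusted threshold. CXCL2, TNF, RELB and CCL20 among them were not detected on all controls and passed the filter on dim probes through the transfected arrays. Of the other listed genes, IL6, ICAM1 and CXCL3 were detected on no array. CXCL1 was detected on 2 of 3 transfected arrays and no control, and none of these was tested. The 5 genes detected on all 6 arrays were all higher, with a median of 1.27. With no filter 12 of 13 were higher, also with a median of 1.27, and without background correction the median of the 9 was 0.98. The groups did not overlap in 5 of the 9, beside 14.7% of all genes apart and higher. CXCL2, TNF and RELB, which passed the filter through the transfected arrays, are among these 5. Of the 5 genes detected on all 6 arrays, 2 were apart and higher, beside 16% of all genes so detected. TNFAIP3, an inhibitor of NF-kB signalling, had 9.50, 9.76 and 9.72 on the transfected arrays, against 8.20, 6.31 and 6.17 on the controls (log2 difference 2.77 ± 0.48, limma adjusted p = 0.0502). CXCL2, a chemokine for neutrophils, was detected on all transfected arrays and 1 of 3 controls and was at least 3.34-fold higher (adjusted p = 0.0502). TNF was at least 3.0-fold higher, with the same detection (adjusted p = 0.0521). RELB, an NF-kB subunit, was at least 2.91-fold higher, with detection on 2 of 3 controls (adjusted p = 0.0576).

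Control 1 was the highest control for all 9 NF-kB induced genes, by 0.82 to 3.50 log2 units over the mean of the other controls, and exceeded at least 1 transfected array for 4 of them. Among the members it was also the highest control for CXCL10, IRF1, IFIH1, IFI27, IFIT2 and ISG15, but not for IFIT1 and IFIT5. The step was small for ISG15 (6.89 against 6.45 and 6.87) and IFIT2 (6.08 against 5.91 and 6.03). For IFI27, control 1 lay farther from the transfected arrays than the other controls did. How often control 1 was the highest control over all genes was not counted. Without control 1 the groups were apart for all 9 NF-kB induced genes, with a median of 2.78, while the share of all genes apart and higher was 22.7%, and the log2 difference of CXCL10 was 2.30. The part that NF-kB signalling or the state of control 1 has in the values of CXCL10 and IRF1 was not tested.

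**Figure D4:**
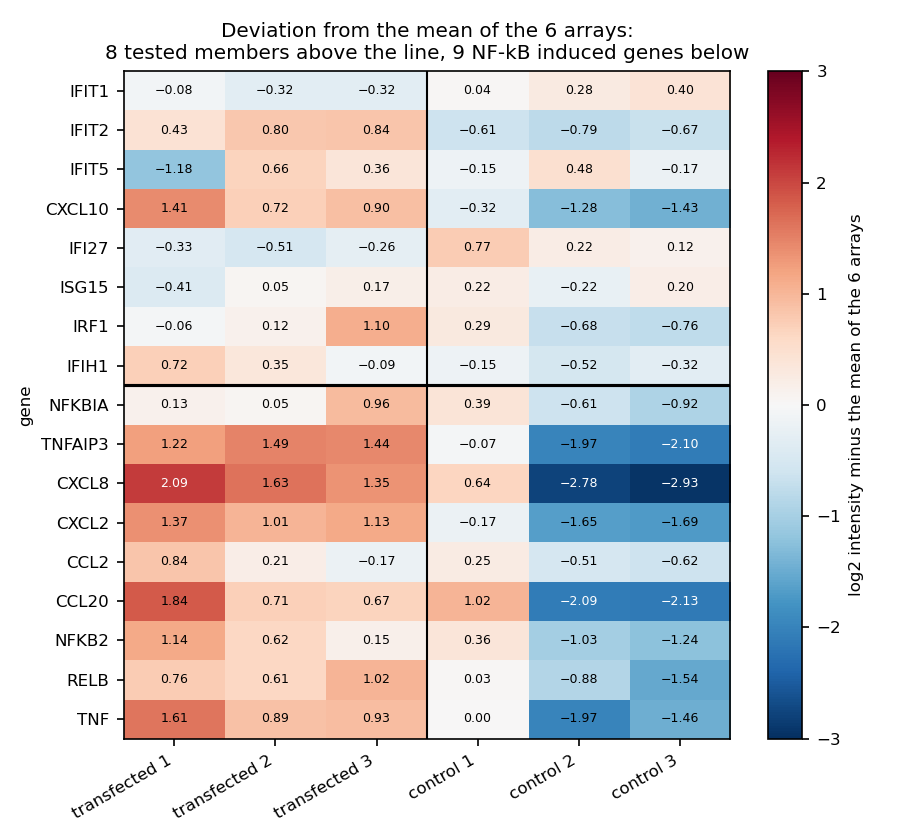
Deviation of each array from the mean of the 6 arrays, in log2 intensity, for the 8 tested members (above the line) and the 9 tested NF-kB induced genes (below), with transfected arrays left of controls. Control 1 lies between the transfected arrays and the other controls for CXCL10, at -0.32 against -1.28 and -1.43 in controls 2 and 3.

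Over the 15 or 16 other settings that gave a value, the direction held under all of them for IFIT1, IFIT2, CXCL10, IFI27, IRF1 and IFIH1. With 1 array left out, the log2 difference ranged from 1.29 to 1.55 for IFIT2, from 1.80 to 2.30 for CXCL10, from -0.58 to -0.40 for IFIT1, from -0.85 to -0.51 for IFI27 and from 0.46 to 0.86 for IFIH1. For IRF1 it ranged from 0.41 to 1.11. Processing moved the sizes too: without background correction CXCL10 was at 0.80 and IFIT2 at 0.61, and in the authors' processed values they were at 2.64 and 1.66. With arrays scaled to equal medians IFIT1 was at -0.80, IRF1 at 0.44 and IFIH1 at 0.34, and the groups of IFIH1 overlapped. IFIT5 and ISG15 changed sign under 4 of 15 and 2 of 16 settings.

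**Figure D5:**
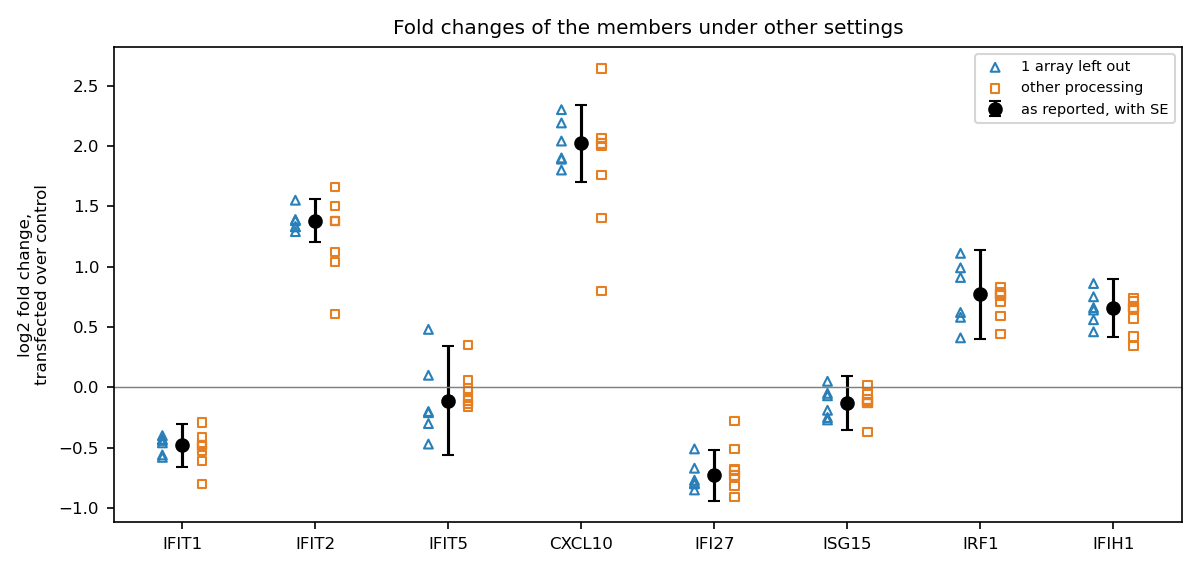
Log2 fold change, transfected over control, of the 8 tested members as reported (black, with SE), with 1 array left out (triangles) and under other processing (squares). IFIT2 and CXCL10 stay above 0 and IFIT1 and IFI27 below 0 under all settings shown, while IFIT5 and ISG15 cross 0.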

How the data were processed

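The members and lists were chosen with earlier results of these data known. Expression was measured on 6 Illumina BeadChip arrays, 3 of transfected and 3 of control HEK293T cells, stained with streptavidin-Cy3. The deposited signal intensity is the mean over the beads of a probe, with the number of beads, its standard error and a detection p-value, per the file headers; BeadStudio is named in the submitters' processing notes. A further table gives the authors' deposited values after their own processing, on a linear scale and uncentred, with medians of 10.5 to 15.5 on transfected arrays and 9.47 to 10.3 on controls. Set against the deposited signal, each array followed a straight line of the same direction (Pearson r at least 0.999997), with a mean of 420, and no source used here names the method.

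The background was estimated from the detection p and removed, 16 was added, and the arrays were quantile normalized and given in log2 (limma 3.58.1, R 4.3.3). Probes detected on at least 3 arrays were kept (14200 of 48803), and of several kept probes of a gene the brightest on average stood for it, giving 9797 genes. Names came from the platform annotation, updated through gene identifiers to RefSeq on GRCh38.p14: 27578 probes had 1 gene, 13 several and 21212 were unnamed here. Groups were compared with lmFit and eBayes, two-sided, adjusted by Benjamini-Hochberg over all genes; errors are moderated standard errors. The fit was tested on simulated data with independent noise for each gene. These hold no effect shared by the genes of an array, so the fit was not tested for such effects. Genes named beside the members are, for each list, up to 4 tested genes with the smallest p; other names give detection, or were chosen after their values were seen. The small number of arrays limits the precision, and p-values measure only the spread between these samples.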

Additional observations from a re-analysis of the deposited data

How the results depend on the processing

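The number of genes past the adjusted threshold, 0 of 9797 with limma (2795 at an unadjusted p under 0.05), turned on the processing. It was 464 without background correction, 273 after cyclic loess, 386 with an offset of 50, 328 among probes detected on all 6 arrays, 5002 with array weights, 1 with every kept probe on its own and 1 in the authors' processed table. With arrays scaled to equal medians it was 373, of which 19 were higher and 354 lower, and the median of all genes moved to -0.33 from -0.03. With 1 array left out it ran from 0 to 1609. Leaving out transfected array 1 gave 485, transfected array 3 gave 1609, control 1 gave 14 and each of the others 0. The cause was not tested. The members apart and higher numbered 2 to 4 and those apart and lower 2 or 3 under the other settings, except among probes detected on all 6 arrays, which keeps 4 of the 8 members and leaves 1 higher (IFIH1) and 1 lower (IFIT1). Of the other values of members and lists, 209 moved by less than the spread behind them and 11 by more. That spread was the SD between arrays within groups for a member, and the SD between its genes for a list. It is wide for the lists and for IFIT5, so the count does not measure stability. A receptor and Janus kinase median of -0.17 with equal medians, against 0.13 as reported, fell within it. No paired analysis was possible because the labels number no replicates. Signal near background limits IFIT2, CXCL10, IFIT3, IFIT5, OASL and IFI27 and, on transfected array 1, ISG15.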

Other observations

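The genes whose profile over the 6 arrays was most like that of a member, by Pearson correlation over all tested genes and as a description of arrays that fall into 2 groups, were as follows. CXCL10 was followed most closely by PTPRR, a receptor-type tyrosine phosphatase (r = 0.994), by MX1, an interferon-induced GTPase that blocks viruses (0.992), and by CXCL2 (0.991). MX1 had 7.38, 7.28 and 7.28 on the transfected arrays, against 7.12, 6.89 and 6.83 on the controls, a much smaller step than that of CXCL10. IFIT2 was followed by BCCIP (0.994), ZIK1 (0.991) and DMRT1 (0.991), and IFI27 by CTNNBIP1 (0.999), OLFML3 (0.994) and BLOC1S1 (0.993).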
